A study of Mus musculus with 33 samples.

Results

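Notch signalling was followed through 10 of its genes during the differentiation of mouse ES cells that carry CRISPR/Cas9 mutations in DNA repair genes. The 10 genes were set by name, with earlier results of these data known. They were the ligand genes Dll1, Dll3 and Jag1, the receptor genes Notch1, Notch2 and Notch3, and the fringe gene Lfng. The others were the target genes Hes1 and Hey1 and their relative Hes6. The 10 genes are among the 37991 gene identifiers that each of the 33 count files lists. All 10 were found and passed the filter on low counts in each of the 21 comparisons. The cells were E14TG2a mESCs, a mouse embryonic stem cell line. Control clones had received the Cas9 plasmid without a guide RNA, mutant clones the plasmid with guides against Neil1, Neil2 or Apex1, and all were picked as single clones after puromycin selection. Neil1 and Neil2 encode DNA glycosylases of base excision repair, which remove damaged or modified bases, and Apex1 encodes the endonuclease that cuts the abasic site left behind. The study asked what the loss of these enzymes does to differentiation, in particular to neural and neural crest cells.

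Each genotype was sequenced at 3 stages, as mESCs kept with LIF, as embryoid bodies (EBs) harvested on day 8, and as EBs + RA, which received 5 µM retinoic acid (RA) from day 4 and were also harvested on day 8. Control (#1, #4 and #7), Neil1 (#7, #9 and #11) and Neil2 (#1, #11 and #14) were each represented by 3 independent clones, listed in this order throughout. Apex1 was represented by technical duplicates of 1 clone (#46), which were summed for the tests, so that clone and genotype cannot be told apart there and the lone clone was assumed to vary like the others. P-values measure the spread between clones. Values are read counts scaled to library size by TMM (CPM, in which each library sums to about the same total). A gene was called differentially expressed (DE) in edgeR where its false discovery rate (FDR) was below 0.1 and its log2 fold change exceeded 0.5 in either direction.

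In the Notch pathway, a transmembrane ligand of the Delta or Jagged family on one cell binds a Notch receptor on its neighbour, the receptor is cleaved, and its intracellular domain enters the nucleus and joins RBPJ to activate target genes. Many targets, such as Hes1 and Hey1, encode basic helix-loop-helix repressors that hold back proneural factors. Fringe enzymes add sugars to the receptors and tune which ligand they answer to. In the developing nervous system the pathway is known for keeping some progenitors from becoming neurons, and in the presomitic mesoderm for its part in the segmentation clock.

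Library totals on genes ran from 21523742 to 48350904 counts. Counts of the 10 genes ranged from 24, for Lfng in a Neil2 library of EBs + RA, to 7192, for Notch3 in a control library of EBs. The mESC library of Neil1 #11 stood apart, with 0.944% of its counts on chromosome X against 3.14% to 4.58% in the others. None of the 10 genes is on that chromosome. The same clone held 4.39% there in EBs and 3.27% in EBs + RA. Its mESC library also had the lowest mean correlation of log2 CPM with its group mates of the 33 libraries, at 0.924. Results that use Neil1 mESCs rest in part on this library. The planned deletions cover 16.5%, 7.97% and 34% of the exon bases of Neil1, Neil2 and Apex1, so counts over the whole gene do not measure them. In mESCs, Neil1 was at 9.85, 9.61 and 7.62 CPM in the controls and 31.5, 2.48 and 7.37 in the Neil1 clones (0.59, FDR 0.816, not called), with #7 above all controls. In EBs + RA, Neil1 was at 6.04, 7.39 and 8.11 CPM in the controls and 4.33, 2.18 and 2.95 in the Neil1 clones (−1.18, FDR 0.018). Neil2 was at 3.4, 3.96 and 4.5 CPM in the controls and 5.85, 5.26 and 4.86 in the Neil2 clones (0.45, FDR 0.154, not called). Apex1 was at 12.6, 13.8 and 14.4 CPM in the controls and higher, at 64.2 and 56.5, in the libraries labelled Apex1 (2.17, FDR 0.0113).

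On the NCBIM37 build that the counts use, Dll1 lies on chromosome 17 at 15504318–15513836, Dll3 on chromosome 7 at 29076673–29087257 and Jag1 on chromosome 2 at 136907192–136942380, all on the minus strand. Among the receptors, Notch1 lies on chromosome 2 at 26313423–26372183 (minus), Notch2 on chromosome 3 at 97817461–97954290 (plus) and Notch3 on chromosome 17 at 32257765–32303825 (minus). Lfng lies on chromosome 5 at 141083295–141091497 (plus). Hes1 lies on chromosome 16 at 30064470–30067882 (plus), Hes6 on chromosome 1 at 93308060–93310615 (minus) and Hey1 on chromosome 3 at 8663362–8667039 (minus). The libraries did not keep the strand, and noncoding genes on the opposite strand share exon bases with Notch1, Notch3 and Dll1, the last with 867 bases of A930024N18Rik, so reads of these pairs cannot be told apart.

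Promoters were compared because most of the 10 genes moved together in EBs + RA, as described further on. RefSeq windows of 250 bases before the start (GRCm38.p6, a later build than that of the counts, on which each sequence was read) were matched for 8 of the 10 genes, and Dll1 and Hes6 have 2 listed starts each. Hes1 and Hey1 were not among them. The Lfng window carries the letters TGGGAA, the core bound by RBPJ, once on each strand, and the E-box CAGCTG, the kind that proneural factors bind, without overlap between them. Each is given 5′ to 3′ with these motifs in capitals. The other windows with the E-box are shown by a short stretch around it.
Lfng (chr5:140607091-140607340, plus strand): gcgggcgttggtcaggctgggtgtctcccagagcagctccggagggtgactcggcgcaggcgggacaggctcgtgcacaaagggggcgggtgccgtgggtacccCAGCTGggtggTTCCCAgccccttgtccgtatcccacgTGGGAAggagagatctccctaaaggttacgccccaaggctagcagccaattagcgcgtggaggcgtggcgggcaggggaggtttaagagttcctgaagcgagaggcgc
Dll1 (chr17:15377032-15377091, minus strand): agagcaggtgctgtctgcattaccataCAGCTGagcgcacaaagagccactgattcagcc
Dll3 (chr7:28301786-28301819, minus strand): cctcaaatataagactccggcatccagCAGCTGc
Jag1 (chr2:137116570-137116629, minus strand): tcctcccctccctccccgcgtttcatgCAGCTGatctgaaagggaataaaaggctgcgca
Hes6 (chr1:91413340-91413399, minus strand): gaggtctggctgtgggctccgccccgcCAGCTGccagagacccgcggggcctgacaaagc
Hes6 (chr1:91414177-91414236, minus strand): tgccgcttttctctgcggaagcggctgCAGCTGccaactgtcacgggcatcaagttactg
Counted back from the start, the E-box begins at −146 in Lfng, −132 in 1 of the 2 Dll1 windows, −7 in Dll3, −82 in Jag1, and −150 and −171 in the Hes6 windows. No window of Notch1, Notch2 or Notch3 holds it, and 13% of 32851 mouse promoter windows do. TGGGAA, read on both strands, was found at −135 and −108 in Lfng and in no other of the 8 genes, with a share of 21.6% among all windows. The letters CACNAG (N is any base), also searched, were found in windows of Notch1, Notch2, Notch3, Hes6 and Lfng, with a share of 36.7%. They are not marked above. Matches are descriptions of letters and not evidence of binding.

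In the control clones the genes changed along the course of differentiation. As EBs formed, the targets Hes1 and Hey1 rose and the ligand Dll1 and the receptor Notch1 fell, and RA then raised Dll1 and Lfng. Of the 10 genes, 8 were DE between control EBs and mESCs, 5 higher and 3 lower, where 18.5% of all genes tested were called higher and 20.2% lower (38.7% in all). Between control EBs + RA and EBs, 6 were DE, 5 higher and 1 lower, where 23.3% of all genes tested were called higher and 20.7% lower (44.1% in all). The share with RA is close to that of all genes, so its count alone says little about the 10 genes. With each library left out in turn, the count with RA ran from 4 to 7, with 7 without control #7 in EBs + RA. The plot of CPM by library shows every clone.

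**Figure D1:**
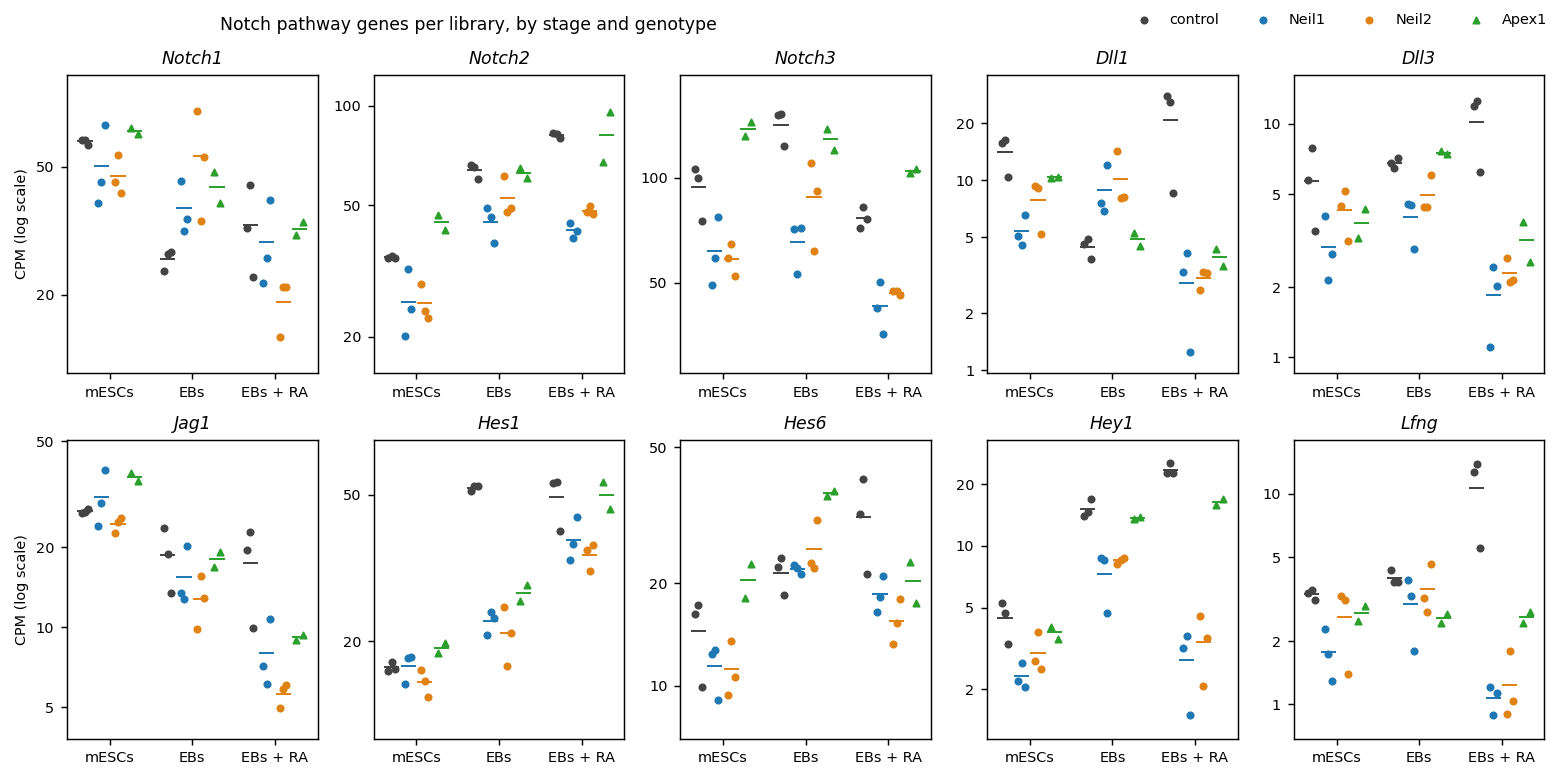
CPM (log axis) of the 10 genes in each library, by stage and genotype; points are libraries, bars are group means and triangles mark the technical duplicates of the Apex1 clone. In EBs + RA the Neil1 and Neil2 libraries lie below all 3 controls for Dll1, Dll3, Lfng, Hey1, Notch2, Notch3 and Hes6.

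Dll1, a Delta ligand of neuronal precursors and presomitic mesoderm, was measured at 15.7, 16.3 and 10.4 CPM in control mESCs, 4.6, 4.9 and 3.87 in EBs and 27.7, 25.7 and 8.61 in EBs + RA. EBs were below every mESC library and below every EBs + RA library, and control #7 was far below the other clones in EBs + RA. The log2 fold change was −1.68 (SE 0.22, FDR 4.5e-04) into EBs and 2.20 (SE 0.40, FDR 0.00247) with RA. Dll3, a Delta-like protein that does not activate receptors on neighbouring cells, stood at 6.77, 6.5 and 7.11 CPM in EBs and 11.9, 12.5 and 6.19 in EBs + RA. These groups overlapped, and its rise of 0.57 (SE 0.26, FDR 0.0963) with RA was lost without control #1, #4 or #7 in EBs or control #1 or #4 in EBs + RA (0.39 to 0.59, FDR 0.158 to 0.29). Jag1, the Jagged ligand, went from 27, 27.2 and 27.8 CPM in mESCs to 23.7, 18.8 and 13.4 in EBs and 19.6, 22.8 and 9.9 in EBs + RA. All EB libraries were below all mESC libraries (−0.57, FDR 0.044), a call lost without control #4 or #7 in EBs (−0.55 to −0.37, FDR 0.104 to 0.122), whereas EBs and EBs + RA overlapped (−0.12, 95% interval −0.84 to 0.60, FDR 0.78).

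The receptors took different courses. Notch1, the main receptor of many progenitors, was at 60.7, 60.7 and 58.7 CPM in mESCs, 23.7, 26.8 and 27.1 in EBs and 32.3, 43.8 and 22.7 in EBs + RA. Its level fell into EBs by 1.24 on the log2 scale (FDR 4.3e-05), with no overlap, and its value with RA was 0.34 (95% interval −0.14 to 0.82, FDR 0.214). Without control #7 in EBs + RA this last difference was called, at 0.54 (FDR 0.00926). Notch2 went from 34.5, 35 and 34.7 CPM in mESCs to 66.1, 65.1 and 60 in EBs and 82.7, 82.4 and 79.8 in EBs + RA, each group above the one before. The first step was 0.86 (SE 0.10, FDR 2.6e-04) and the second 0.35 (SE 0.09, FDR 0.0108), which is under the limit on fold change. Notch3, a receptor also known from smooth muscle and neural progenitors, was at 106, 100 and 75.3 CPM in mESCs, 151, 152 and 123 in EBs and 71.7, 82.5 and 76.2 in EBs + RA. Its EB level was above both other stages, at 0.58 (FDR 0.0146) against mESCs, a call lost without control #7 as mESCs (0.45, FDR 0.00486), and −0.90 (FDR 2.6e-04) with RA.

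Lfng, which encodes a glucosaminyltransferase that modifies Notch receptors, was low in mESCs (3.4, 3.48 and 3.14 CPM) and EBs (4.33, 3.81 and 3.83 CPM) and reached 12.7, 13.9 and 5.53 CPM in EBs + RA. All RA-treated controls were above all EBs, control #7 by the least, and the change was 1.41 (SE 0.32, FDR 0.00643). Hes1, a repressor induced by Notch, was at 16.6, 17.6 and 16.8 CPM in mESCs and 51.1, 52.7 and 53 in EBs. In EBs + RA it was at 53.8, 54.1 and 39.9 CPM. It rose into EBs by 1.60 on the log2 scale (FDR 1.2e-05) and overlapped between EBs and EBs + RA (−0.10, 95% interval −0.39 to 0.19, FDR 0.549). Hey1, a related repressor, was at 5.24, 4.73 and 3.34 CPM in mESCs, 14, 14.6 and 17 in EBs and 22.7, 25.3 and 22.6 in EBs + RA. It rose at both steps without overlap, by 1.76 (FDR 2.6e-04) and 0.62 (FDR 0.00448). Hes6, which counteracts Hes1 and is expressed in neuronal precursors, was at 16.2, 17.3 and 9.9 CPM in mESCs, 22.3, 23.6 and 18.5 in EBs and 31.9, 40.4 and 21.2 in EBs + RA. The Hes6 call into EBs (0.55, FDR 0.0675) was lost without control #7 in mESCs or control #1 or #4 in EBs (0.35 to 0.53, FDR 0.0602 to 0.182). Its call with RA (0.53, FDR 0.0739) was made on overlapping groups and was lost without control #1, #4 or #7 in EBs or control #1 or #4 in EBs + RA (0.29 to 0.59, FDR 0.109 to 0.277). With the clone as a replicate block the RA value of Hes6 was 0.49 (FDR 0.0154), under the limit on fold change.

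Compared per length, as mean CPM per kilobase of exon, Notch3 was the highest of the 10 genes in control mESCs (11.7) and Hes1 in EBs (25.7) and in EBs + RA (24.2). The lowest were Lfng in mESCs (1.46), Dll1 in EBs (1.06) and Notch1 in EBs + RA (2.31). In EBs + RA the order on this scale was Hes1, Hes6 (17.2), Hey1 (10.7), Notch3 (9.55), Notch2 (7.77), Dll1 (4.9), Lfng (4.7), Dll3 (3.54), Jag1 (2.99) and Notch1. The ranges over the 3 clones overlapped between Hes1 and Hes6, between Hey1 and Notch3, and between each neighbouring pair from Dll1 to Notch1, so these neighbours did not differ beyond their spread.

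The largest differences between mutant and control clones were in EBs + RA. The Delta ligands, Lfng and Hey1 were several-fold lower in both Neil1 and Neil2 EBs + RA, the receptors Notch2 and Notch3 were lower by smaller amounts, and none of the 10 genes was called higher. In Neil1 EBs + RA 8 of 10 were DE and lower, where 21.2% of all genes tested were called higher and 19.9% lower (41.1% in all). In Neil2 EBs + RA all 10 were DE and lower, where 18.3% of all genes tested were called higher and 16.6% lower (34.9% in all). The median log2 fold change of the 10 genes was −1.03 in Neil1 and −1.30 in Neil2, beside medians of 0.00 over all genes tested in both. With each clone left out in turn the counts ran from 6 to 9 in Neil1 and from 8 to 10 in Neil2, with 9 and 10 without control #7. The mutants were compared with the same 3 control clones, so their values are given side by side and are not independent of each other. In bulk RNA, fewer cells of a type and less RNA per cell cannot be told apart.

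**Figure D2:**
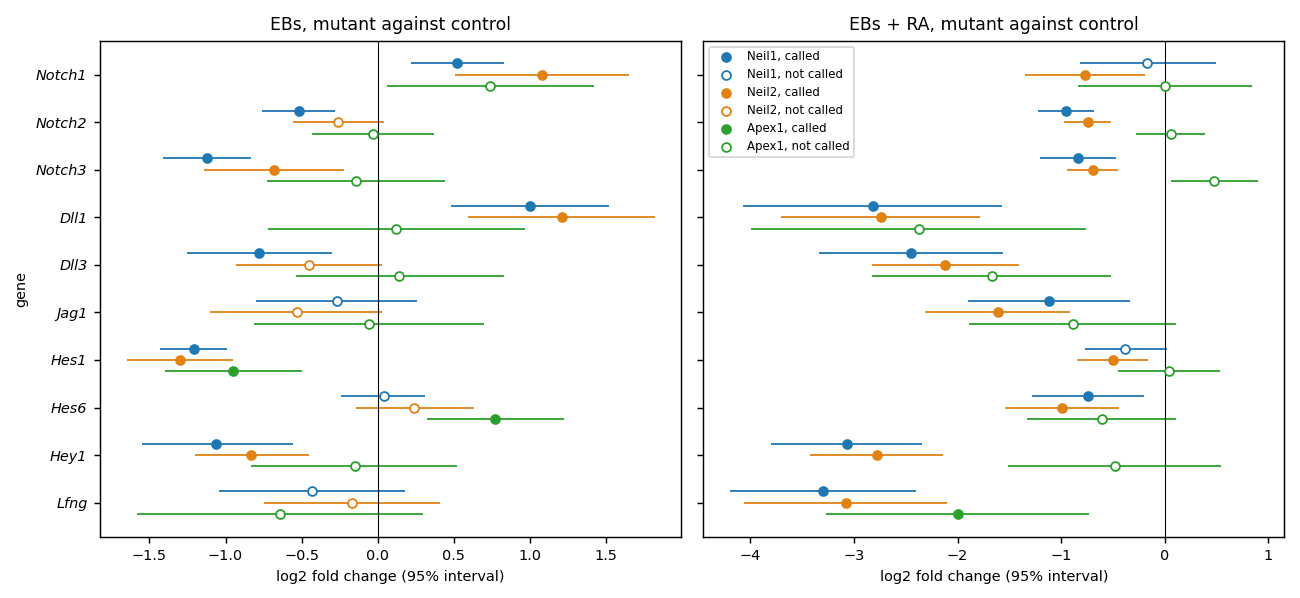
Log2 fold change of each gene against the control in EBs and in EBs + RA, for Neil1, Neil2 and Apex1; points are edgeR estimates, lines their 95% intervals, and filled points were called DE. In EBs + RA the Neil1 and Neil2 estimates for Lfng, Hey1, Dll1 and Dll3 lie between −3.30 and −2.12, while in EBs Notch1 and Dll1 lie above 0.

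Among the ligands, both Delta genes fell further than Jag1. Against 27.7, 25.7 and 8.61 CPM in the controls, Dll1 was at 3.28, 4.14 and 1.25 CPM in Neil1 and 2.63, 3.28 and 3.23 CPM in Neil2 EBs + RA. Every mutant clone was below every control clone, including control #7. The means were 20.7 ± 10.5, 2.89 ± 1.48 and 3.05 ± 0.365 CPM (SD, n = 3). The log2 fold change was −2.82 (SE 0.54, FDR 0.00633) in Neil1, 7.05-fold lower, and −2.74 (SE 0.42, FDR 0.0025) in Neil2, 6.68-fold lower. Without control #7 the Neil1 value was −3.19. Dll3 was at 1.11, 2.43 and 2.02 CPM in Neil1 and 2.66, 2.1 and 2.15 CPM in Neil2, below all controls, with −2.45 (SE 0.39, FDR 0.0026) and −2.12 (SE 0.31, FDR 0.00205). Jag1 was at 7.12, 6.11 and 10.7 CPM in Neil1, where #11 lay above control #7, and at 4.95, 5.87 and 6.08 CPM in Neil2, below all controls. It fell in Neil2 at −1.61 (SE 0.30, FDR 0.00594). The Neil1 call, −1.12 (SE 0.34, FDR 0.0343), was lost without control #1 or #4 or Neil1 #9 (−1.03 to −0.89, FDR 0.106 to 0.121).

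Lfng had the largest fold change of the 10 genes in both mutants. From 12.7, 13.9 and 5.53 CPM in the controls it was at 1.21, 0.893 and 1.13 CPM in Neil1 and 0.9, 1.79 and 1.04 CPM in Neil2, well separated in all clones. The log2 fold changes were −3.30 (SE 0.39, FDR 7.7e-04), or 9.84-fold lower, and −3.08 (SE 0.43, FDR 0.00169), or 8.44-fold lower. Per kilobase of exon, Lfng had the lowest level of the 10 genes in both mutants, 0.472 and 0.544 mean CPM, where Hes1 stood at 18.5 and 16.8. Its promoter window is the one printed above with both TGGGAA and the E-box. A link between these letters and the fall was not tested, and Hey1 had no window to compare.

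Notch2 and Notch3 were lower to a smaller degree. Notch2 was at 44.2, 39.8 and 41.9 CPM in Neil1 and 47.6, 49.8 and 47 CPM in Neil2, against 82.7, 82.4 and 79.8 in the controls. These narrow, separate groups gave −0.95 (SE 0.12, FDR 9.5e-04) and −0.74 (SE 0.10, FDR 0.00146). Notch3 was at 42.3, 50.3 and 35.7 CPM in Neil1 and 47.2, 47.3 and 46 CPM in Neil2 against 71.7, 82.5 and 76.2 in the controls, again without overlap, with −0.84 (SE 0.16, FDR 0.00559) and −0.69 (SE 0.11, FDR 0.00264). Notch1 was at 21.8, 26.1 and 39.6 CPM in Neil1 and 14.8, 21.2 and 21.2 CPM in Neil2, against 32.3, 43.8 and 22.7 in the controls. The Neil1 clones spread across the control range and the difference was not called (−0.17, 95% interval −0.82 to 0.49, FDR 0.667). The Neil2 clones were below all controls, by little in the case of control #7, and the call of −0.77 (SE 0.25, FDR 0.0473) was lost without control #1 or #4 (−0.78 to −0.51, FDR 0.116 to 0.161).

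Among Hes1, Hes6 and Hey1, Hey1 had the largest fold change and Hes1 the smallest in both mutants. Hey1 was at 22.7, 25.3 and 22.6 CPM in the controls, 3.16, 3.64 and 1.49 CPM in Neil1 and 4.54, 2.07 and 3.54 CPM in Neil2. The clones of a genotype lay close together, and the fall was −3.07 (SE 0.32, FDR 4.5e-04) in Neil1, 8.41-fold, and −2.78 (SE 0.28, FDR 5.2e-04) in Neil2, 6.87-fold. Hes6 was at 16.5, 18.2 and 21 CPM in Neil1 and 13.3, 15.3 and 18 CPM in Neil2 against 31.9, 40.4 and 21.2 in the controls. It lay below all controls in both, with control #7 at the edge of the Neil1 range, at −0.99 (SE 0.24, FDR 0.0157) in Neil2. The Neil1 call for Hes6, −0.74 (SE 0.24, FDR 0.0409), was lost without control #1 or #4 or Neil1 #7 or #9 (−0.73 to −0.52, FDR 0.104 to 0.154). Hes1 was at 33.2, 36.7 and 43.4 CPM in Neil1 and 35.3, 31 and 36.6 CPM in Neil2 against 53.8, 54.1 and 39.9 in the controls. In Neil1 it overlapped control #7 and was not called (−0.38, 95% interval −0.77 to 0.02, FDR 0.118), but was called without control #7 at −0.51 (FDR 0.0415). In Neil2 the value of −0.50 (SE 0.15, FDR 0.035) sat at the limit on fold change and was lost without control #1 or #4 or Neil2 #11 (−0.44 to −0.43, FDR 0.115 to 0.133), and with the replicate block (−0.49, FDR 0.0659).

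Apex1 EBs + RA gave 1 call among the 10 genes, where 4.97% of all genes tested were called higher and 2.25% lower (7.21% in all). That share is close to the one over all genes. Lfng was at 2.44 and 2.76 CPM in the duplicates, below all controls, at −2.00 (SE 0.58, FDR 0.0855), a call lost without control #1 or #4 (−1.86 to −1.77, FDR 0.204 to 0.219). Dll1 at 4.37 and 3.52 CPM and Dll3 at 3.81 and 2.56 CPM were also below all controls, at −2.37 (SE 0.73, FDR 0.104) and −1.67 (SE 0.52, FDR 0.108), which did not pass the test. Without control #7, which was the lowest control for both, Dll1 (−2.75, FDR 0.0284), Dll3 (−1.94, FDR 0.0436), Jag1 (−1.18, FDR 0.0859) and Hes6 (−0.83, FDR 0.0991) were called as well, and the share of all genes was 11.2%. Hey1, Notch2 and Notch3, which fell in Neil1 and Neil2, had values of −0.48 (95% interval −1.51 to 0.54, FDR 0.64), 0.06 (95% interval −0.28 to 0.39, FDR 0.888) and 0.48 (95% interval 0.06 to 0.90, FDR 0.204) in Apex1. Hey1 duplicates of 15.8 and 17 CPM lay below the 3 controls and far above the Neil1 and Neil2 clones.

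In EBs without RA the mutants showed a mixed pattern. The targets Hes1 and Hey1 and the receptor Notch3 were lower in both Neil1 and Neil2 EBs, while the ligand Dll1 and the receptor Notch1 were higher. In Neil1, 2 of the 10 genes were DE and higher and 5 lower, where 10.4% of all genes tested were called higher and 13.1% lower (23.5% in all). In Neil2, 2 were higher and 3 lower, where 8.65% of all genes tested were called higher and 7.69% lower (16.3% in all). The medians of the 10 genes were −0.47 and −0.35, with −0.00 and 0.02 over all genes.

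Hes1 had the largest fold change of the 10 genes in EBs of both mutants, at 51.1, 52.7 and 53 CPM in the controls, 20.8, 24 and 23.1 in Neil1 and 24.8, 17.1 and 21.1 in Neil2. All mutant clones were far below all controls, at −1.21 (SE 0.10, FDR 1.4e-05) and −1.30 (SE 0.15, FDR 0.00153). Hey1 was at 14, 14.6 and 17 CPM in the controls, 8.76, 8.54 and 4.69 in Neil1 and 8.16, 8.57 and 8.74 in Neil2, with Neil1 #11 the lowest. Its log2 fold changes were −1.06 (FDR 0.00557) and −0.83 (FDR 0.014), and no clone crossed between groups. Hes6 overlapped the controls in both and was not called (0.04, 95% interval −0.24 to 0.31, FDR 0.853, and 0.24, 95% interval −0.14 to 0.63, FDR 0.412).

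Dll1 lay on the other side of the controls than in EBs + RA. Against 4.6, 4.9 and 3.87 CPM in control EBs it was at 7.6, 6.91 and 12.1 CPM in Neil1 and 14.3, 8.07 and 8.15 CPM in Neil2. Every mutant clone was above every control, at 1.00 (SE 0.24, FDR 0.00958) and 1.21 (SE 0.27, FDR 0.0223). Dll3 fell in Neil1 (4.55, 4.47 and 2.91 CPM against 6.77, 6.5 and 7.11 in the controls, −0.78, FDR 0.0204) and was not called in Neil2 (4.4, 4.39 and 6.03 CPM, −0.45, 95% interval −0.93 to 0.03, FDR 0.217). For Jag1 (−0.27, 95% interval −0.80 to 0.26, FDR 0.437, and −0.53, 95% interval −1.10 to 0.03, FDR 0.214) and Lfng (−0.43, 95% interval −1.04 to 0.18, FDR 0.282, and −0.17, 95% interval −0.75 to 0.41, FDR 0.736) no difference was called.

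Notch1 was at 45.2, 31.7 and 34.5 CPM in Neil1 EBs and 74.6, 33.9 and 53.8 CPM in Neil2 EBs, all above the controls at 23.7, 26.8 and 27.1. The values were 0.52 (SE 0.14, FDR 0.0173), lost without control #1 or Neil1 #7 (0.36 to 0.46, FDR 0.0662 to 0.071), and 1.08 (SE 0.25, FDR 0.0251), lost without control #1 (1.02, FDR 0.105). Notch3 fell from 151, 152 and 123 CPM in the controls to 71.1, 53 and 71.6 CPM in Neil1, at −1.12 (SE 0.13, FDR 1.8e-04). In Neil2 it was at 110, 61.7 and 91.7 CPM, where #1 came nearest to the controls, and the call of −0.68 (SE 0.20, FDR 0.0613) was lost without control #1 or #4 or Neil2 #11 or #14 (−0.70 to −0.49, FDR 0.0726 to 0.192). Notch2 was called in Neil1 (49.2, 45.9 and 38.3 CPM against 66.1, 65.1 and 60, −0.52, SE 0.11, FDR 0.00465), a call lost without control #1 or Neil1 #11 (−0.49 to −0.42, FDR 0.0085 to 0.0212). In Neil2, where #1 overlapped the controls, its value was −0.26 (95% interval −0.56 to 0.04, FDR 0.257).

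Apex1 EBs had 2 calls, 1 in each direction, where 4.12% of all genes tested were called higher and 4.77% lower (8.89% in all). Hes1 at 25.7 and 28.5 CPM was below all controls, at −0.95 (SE 0.21, FDR 0.0267). Hes6 at 35.9 and 37.3 CPM was above all controls, at 0.77 (SE 0.21, FDR 0.0561), and was lost without control #1, #4 or #7 (0.67 to 0.84, FDR 0.104 to 0.117). Dll1 at 5.27 and 4.5 CPM overlapped the controls (0.12, 95% interval −0.72 to 0.97, FDR 0.905).

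As mESCs the mutants showed few calls. In Neil1 1 of 10 was lower, where 1.03% of all genes tested were called higher and 0.784% lower (1.82% in all), and in Neil2 1 of 10 was lower, beside 1.4% higher and 0.429% lower over all genes (1.83%). In Apex1 0 of 10 were called, beside 1.98%. At an unadjusted p below 0.05, edgeR gave 6, 4 and 1 of the 10, beside 15.3%, 15.1% and 18% of all genes. DESeq2 called 4, 2 and 0 of the 10, beside 4.25%, 3.32% and 6.44% of the genes it was run on. Dll1 was at 15.7, 16.3 and 10.4 CPM in the controls and 5.09, 4.55 and 6.6 in Neil1, without overlap. It fell at −1.40 (SE 0.24, FDR 0.0758), a call lost without control #1 or #4 or Neil1 #7 or #9 (−1.36 to −1.29, FDR 0.161 to 0.338) and with the replicate block (−1.39, FDR 0.202). In Neil2 mESCs Dll1 was at 9.36, 9.13 and 5.23 CPM, −0.86 (SE 0.26, FDR 0.187), below the controls and not called, and with the replicate block it was called (−0.88, FDR 0.0395). Notch3 was at 106, 100 and 75.3 CPM in the controls and 59, 64.6 and 52.2 in Neil2, −0.70 (SE 0.15, FDR 0.0851), and was lost without control #1 or #4 or Neil2 #1, #11 or #14 (−0.78 to −0.61, FDR 0.167 to 0.459). Control #7 was the lowest control for both genes. Without it Dll3, Hey1, Lfng and Notch3 were also called in Neil1 (−1.21, −1.12, −0.98 and −0.76), and Dll1, Hes6 and Hey1 in Neil2 (−1.03, −0.60 and −0.74). Over all genes, 12.6% in Neil1 and 9.35% in Neil2 were then called.

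The response to RA itself, EBs + RA against EBs of the same genotype, ran in opposite directions in control and mutant clones for several of the genes. RA raised Dll1, Lfng and Hey1 in the controls and lowered all 3 in Neil1 and in Neil2. Neil1 clones had 7 of 10 genes DE, 1 higher and 6 lower, where 28.2% of all genes tested were called higher and 25.2% lower (53.4% in all). Neil2 clones had 9 of 10, 1 higher and 8 lower, where 21.4% of all genes tested were called higher and 21% lower (42.4% in all). The 1 higher gene was Hes1 in each, at 0.71 (SE 0.15, FDR 0.00485) and 0.68 (SE 0.17, FDR 0.0162), where the controls, already high in EBs, showed −0.10 (95% interval −0.39 to 0.19, FDR 0.549).

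**Figure D3:**
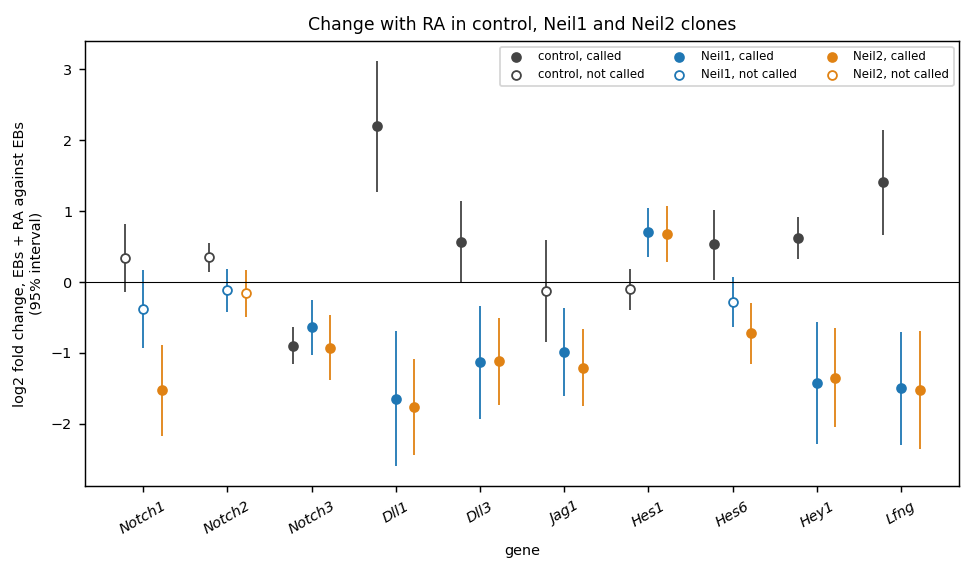
Log2 fold change of each gene in EBs + RA against EBs within control, Neil1 and Neil2 clones, with 95% intervals from edgeR; filled points were called DE. For Dll1 the control estimate is 2.20, with Neil1 at −1.65 and Neil2 at −1.77, and Lfng, Dll3 and Hey1 likewise lie on opposite sides of 0.

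For Dll1 the RA response was 2.20 (SE 0.40, FDR 0.00247) in control, −1.65 (SE 0.42, FDR 0.0104) in Neil1 and −1.77 (SE 0.30, FDR 0.00263) in Neil2. The interaction, which is the mutant difference in EBs + RA minus that in EBs, was −3.80 (SE 0.64, FDR 0.00175) for Neil1, a factor of 13.9, and −3.96 (SE 0.53, FDR 4.5e-04) for Neil2, a factor of 15.6. Lfng followed with responses of 1.41 (FDR 0.00643), −1.50 (FDR 0.00714) and −1.52 (FDR 0.0122), and interactions of −2.86 (SE 0.50, FDR 0.00189) and −2.93 (SE 0.50, FDR 0.00271). Hey1 had responses of 0.62 (FDR 0.00448), −1.43 (FDR 0.0121) and −1.35 (FDR 0.00961), with interactions of −2.00 (SE 0.40, FDR 0.00416) and −1.97 (SE 0.32, FDR 0.00198). For these genes the change with RA differed between mutant and control clones beyond the spread between clones. Dll3 fell with RA in Neil1 and Neil2 (−1.13, FDR 0.0234, and −1.12, FDR 0.0123), with interactions of −1.66 (FDR 0.0192) and −1.69 (FDR 0.0121).

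Across the 10 genes the interaction passed an FDR of 0.1 for 7 in Neil1 and 8 in Neil2 (5 to 9 and 7 to 9 with a library left out in turn, 9 in each without control #7 in EBs + RA), beside 32.2% and 15.4% of all genes tested, with Hes1 on the positive side in both (0.85, FDR 0.00993, and 0.78, FDR 0.0362). Notch1 was among those of Neil2 (−1.86, SE 0.38, FDR 0.00766) and not of Neil1 (−0.67, 95% interval −1.43 to 0.08, FDR 0.176), where it passed without control #7 or Neil1 #11 in EBs + RA (−0.96 to −0.89, FDR 0.0418 to 0.0499). Notch3 fell with RA in control, Neil1 and Neil2 clones (−0.90, FDR 2.6e-04, −0.64, FDR 0.0131, and −0.93, FDR 0.00789), and its interactions were 0.30 (95% interval −0.15 to 0.76, FDR 0.312) and −0.03 (95% interval −0.54 to 0.49, FDR 0.961). Jag1 fell with RA in Neil1 (−0.99, FDR 0.0155) and Neil2 (−1.21, FDR 0.00517). The Jag1 interaction was −0.83 (FDR 0.2) and −1.09 (FDR 0.118) without a block and passed with the clone as a replicate block, at −0.79 (FDR 0.0297) and −1.03 (FDR 0.0173). The small interactions of Notch2 (−0.42, FDR 0.0683, and −0.50, FDR 0.0667) and that of Hes6 in Neil1 (−0.76, FDR 0.0679) were near the threshold. Notch2 was lost in Neil1 without control #4 or #7 or Neil1 #7 or #9 in EBs or control #1 or #4 or Neil1 #9 in EBs + RA (−0.43 to −0.34, FDR 0.112 to 0.163). In Neil2 Notch2 was lost without control #1, #4 or #7 in EBs or control #1 or #4 or Neil2 #1, #11 or #14 in EBs + RA (−0.54 to −0.45, FDR 0.104 to 0.187). Hes6 was lost in Neil1 without control #7 or Neil1 #7 or #9 in EBs or control #1 or #4 or Neil1 #7 or #9 in EBs + RA (−0.76 to −0.53, FDR 0.109 to 0.177). In Apex1 the count was 0 of 10 beside 1.98% of all genes in edgeR, with 4 of the 10 at an unadjusted p below 0.05, beside 11.2% of all genes. DESeq2 called 4, beside 2.81% of the genes it was run on. Without control #7 in EBs + RA, Dll1 (−2.89, FDR 0.0343), Dll3 (−2.10, FDR 0.0446) and Hes6 (−1.62, FDR 0.0175) passed, and the share of all genes was 4.4%.

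The step from mESCs to EBs, without RA, was also followed within each mutant. Neil1 clones had 5 of the 10 genes DE beside 27.9% of all genes, and Neil2 clones 5 beside 27.4%. Dll1 was 0.73 (FDR 0.0631) in Neil1 clones, lost without Neil1 #7 or #9 in mESCs or Neil1 #11 in EBs (0.47 to 0.69, FDR 0.139 to 0.192), where the controls were −1.68 (FDR 4.5e-04). Hes1 was 0.42 (FDR 0.0541) in Neil1 and 0.46 (FDR 0.0913) in Neil2, under the limit on fold change, where the controls were 1.60 (FDR 1.2e-05). The difference between genotypes at this step was not tested. Hey1 rose in Neil1 (1.67, FDR 0.00287) and Neil2 (1.51, FDR 0.00287) as it did in the controls (1.76, FDR 2.6e-04).

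Neil1 and Neil2 clones were also compared directly. None of the 10 genes was called at any stage by edgeR, beside 0% of all genes tested, and the only one of the 10 with an unadjusted p below 0.05 was Notch1 in EBs + RA, higher in Neil1 at 0.64 (95% interval 0.05 to 1.23, FDR 0.486). Over all genes, 915, 735 and 1608 had an unadjusted p below 0.05 as mESCs, EBs and EBs + RA, and DESeq2 called 3, 1 and 111. For Dll1, Lfng and Hey1 in EBs + RA the difference was −0.05 (95% interval −0.99 to 0.90, FDR 0.969), −0.18 (95% interval −1.02 to 0.65, FDR 0.85) and −0.26 (95% interval −1.21 to 0.68, FDR 0.806), intervals that leave room for differences in either direction.

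The rest of the pathway was followed through 47 further genes from a fixed list. In Neil1 EBs + RA, 9 were higher and 12 lower of 45 tested, in Neil2 EBs + RA 4 and 16 of 45, and in Apex1 EBs + RA 1 and 2 of 47. In EBs the counts were 6 higher and 8 lower of 42 in Neil1 and 9 and 5 of 43 in Neil2. In control clones 12 were higher and 8 lower of 43 in EBs against mESCs, and 15 and 8 of 45 with RA. Over all genes, 41.1%, 34.9% and 7.21% were called in Neil1, Neil2 and Apex1 EBs + RA, and 23.5% and 16.3% in Neil1 and Neil2 EBs. In the control comparisons it was 38.7% in EBs against mESCs and 44.1% with RA. In Neil1 and Apex1 EBs + RA and in the controls the counts are near these shares and alone say little about the pathway. The counts by role below stand beside the same shares. The plot of the pathway by role shows each gene.

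**Figure D4:**
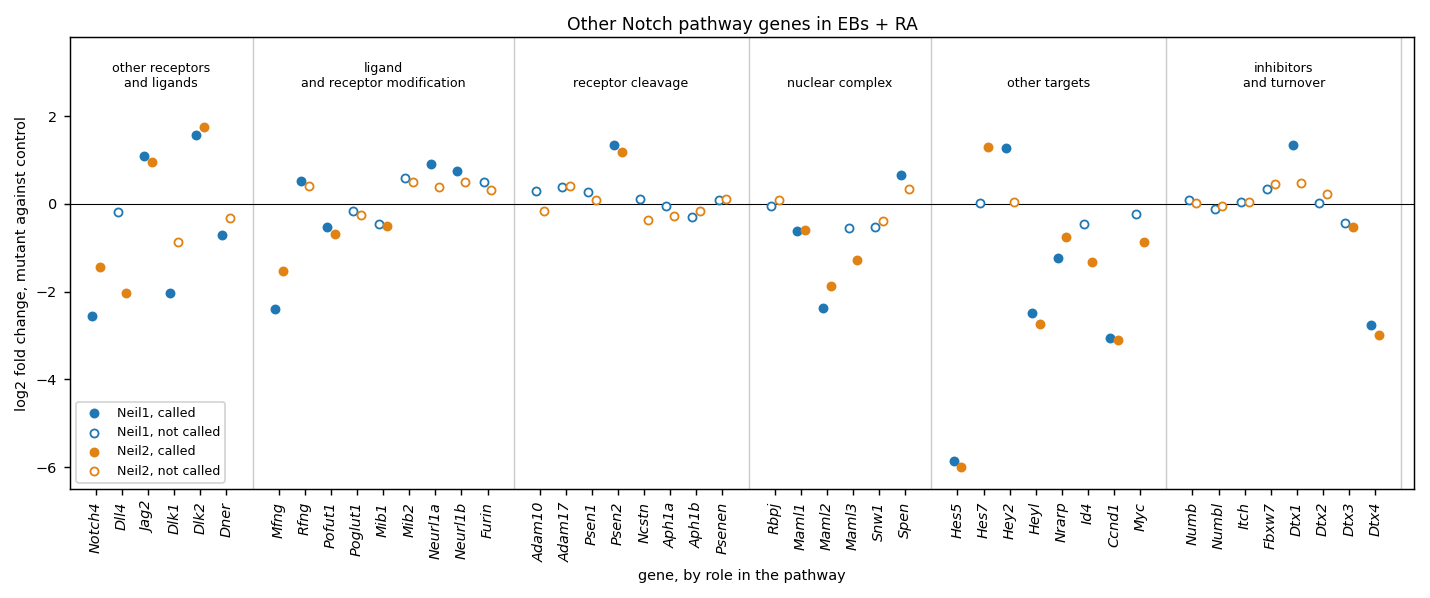
Log2 fold change of the further pathway genes in Neil1 and Neil2 EBs + RA against control EBs + RA, grouped by role; points are edgeR estimates and filled points were called DE. Hes5 lies near −6 in both mutants, and genes of receptor cleavage lie near 0 except Psen2.

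Other receptors and ligands had 2 higher and 3 lower of 6 in Neil1 and 2 and 2 of 6 in Neil2 EBs + RA. Dll4, a Delta ligand of endothelium and neural progenitors, rose with RA in the controls (2.95, FDR 9.8e-04) and was −0.19 (FDR 0.844) in Neil1 and −2.02 (FDR 0.0207) in Neil2. The receptor gene Notch4 was lower in both (−2.56, FDR 9.9e-04, and −1.44, FDR 0.0129) and higher in both as EBs (1.18, FDR 5.3e-05, and 1.32, FDR 0.00618). Dlk2, a Delta-like relative without the receptor-activating domain, was higher (1.58, FDR 0.0124, and 1.76, FDR 0.0143), and Dlk1 fell in Neil1 (−2.02, FDR 0.0116) with −0.86 (FDR 0.312) in Neil2. Genes of ligand and receptor modification had 3 higher and 2 lower of 9 in Neil1 and 0 and 3 in Neil2. Mfng, the fringe relative of Lfng, was lower in both (−2.39, FDR 0.00947, and −1.52, FDR 0.0113), and the ubiquitin ligase genes Neurl1a and Neurl1b were higher in Neil1 (0.91, FDR 0.0242, and 0.74, FDR 0.0815). Furin, which cleaves the receptor on its way to the surface, rose into control EBs (1.68, FDR 1.4e-04).

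Of the 8 genes for receptor cleavage, 1 was called in each mutant, Psen2, a subunit of γ-secretase, which was higher (1.35, FDR 0.00408, and 1.18, FDR 0.00522). In the controls Adam10, Aph1b and Psen2 rose with RA (1.20, FDR 2.7e-05, 1.17, FDR 0.00253, and 0.69, FDR 0.0197) and Psenen rose into EBs (0.65, FDR 0.00149). Of 6 genes for the nuclear complex, 1 was higher and 2 lower in Neil1 and 0 and 3 in Neil2. Rbpj, the DNA-binding partner of the receptor, fell in the controls at both steps (−0.77, FDR 0.0141, and −1.06, FDR 2.8e-05) and was −0.05 (95% interval −0.57 to 0.47, FDR 0.876) and 0.08 (95% interval −0.35 to 0.52, FDR 0.764) in the mutants. The coactivator Maml2 was lower in both (−2.38, FDR 0.0046, and −1.88, FDR 0.00504). Maml3 rose into control EBs (4.18, FDR 1.2e-05) and was lower in Neil1 and Neil2 EBs (−1.99, FDR 4.8e-05, and −2.11, FDR 0.00232).

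Other targets had 1 higher and 4 lower of 8 tested in Neil1 and 1 and 6 in Neil2. Hes5, a Notch target of neural progenitors, was at 9.21, 11.9 and 4.07 CPM in control EBs + RA, 0.155, 0.179 and 0.0808 in Neil1, 0.075, 0.223 and 0.0694 in Neil2 and 0.257 and 0.242 in the Apex1 duplicates. These levels rest on 2 to 7 counts in each mutant library and 123 to 317 in the controls. The differences were −5.85 (SE 0.54, FDR 2.8e-04), −6.00 (SE 0.59, FDR 4.8e-04) and −5.03 (SE 0.82, FDR 0.0155), and control EBs without RA held 1 to 4 counts. Heyl was at 4.85, 5.2 and 3.48 CPM in the controls and fell at −2.48 (FDR 0.00823) and −2.73 (FDR 0.00135). Ccnd1, a G1 cyclin, fell at −3.06 (FDR 5.2e-04) and −3.11 (FDR 8.3e-04), with −0.01 (FDR 0.993) in Apex1, and Hey2 was higher in Neil1 EBs + RA (1.28, FDR 0.0189).

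Inhibitors and turnover genes had 1 higher and 1 lower of 8 in Neil1 and 0 and 2 in Neil2. Dtx4, a Deltex ubiquitin ligase, was at 121, 104 and 55.6 CPM in control EBs + RA after a rise of 4.34 (FDR 2.2e-05) with RA. It was lower in all 3 mutants (−2.75, FDR 4.1e-04, −2.99, FDR 7.7e-04, and −1.84, FDR 0.0483). Dtx1 was higher in Neil1 (1.34, FDR 0.0219) and Dtx3 lower in Neil2 (−0.53, FDR 0.0809).

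Markers of cell types, among them those in which the pathway is known to act, were followed in the same groups. Their counts stand beside the shares of all genes given above. All 8 genes listed for neuronal precursors and neurons (Neurog1, Neurog2, Neurod1, Neurod4, Dcx, Tubb3, Stmn2 and Elavl3) were lower in EBs + RA of Neil1 and of Neil2, with 7 of 8 in Apex1. Their summed level was 137 to 245 CPM in control EBs + RA, 22.8 to 33.9 in Neil1, 16 to 34.4 in Neil2 and 33.8 to 42.5 in Apex1. The same sum was 435 to 452 CPM in control mESCs, so it is not particular to neurons. With RA most of these genes had risen in the controls (7 higher and 1 lower of 8, median 4.76). For neural progenitors, measured by Sox2, Pax6, Nes, Fabp7 and Pax3, 5 of 5 were lower in Neil1, 4 in Neil2 and 4 in Apex1, with sums of 215 to 394 CPM in the controls, 33.6 to 79.3 in Neil1, 56.1 to 102 in Neil2 and 153 to 155 in Apex1. Sox2 was the highest of these genes in each mutant, at means of 33.4, 53.6 and 103 CPM against 71.3 in the controls. It was not called in Neil2 or Apex1, and its Neil1 call (−1.08, FDR 0.0572) was made on overlapping groups. Pax6 was at a mean of 8.9 CPM in Apex1 against 101 in the controls. Genes of pluripotent cells (Pou5f1, Nanog, Zfp42, Esrrb, Klf4 and Tdgf1) were higher for 5, 6 and 4 of 6, summing to 76.3 to 115 CPM in the controls, 255 to 329 in Neil1, 174 to 493 in Neil2 and 493 to 626 in Apex1. No marker of these 3 lists was at 0 in a whole group of EBs + RA.

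In EBs, markers of presomitic and early paraxial mesoderm (Tbx6, Msgn1, Mesp1, Mesp2, Hes7 and T) were lower for 4 of 5 tested in Neil1, 3 of 5 in Neil2 and 2 of 6 in Apex1. Their sum was 77.9 to 131 CPM in control EBs, 6.1 to 9.51 in Neil1, 6.82 to 7.55 in Neil2 and 34.5 to 40.7 in Apex1. Most of the control sum came from T, at a mean of 85.8 CPM, with Mesp1 next at 3.67. The sum therefore describes T more than the list. In Neil2 EBs, Tbx6 (0.07, FDR 0.944) and Mesp2 (0.20, FDR 0.729) were the tested genes not called. Markers of pluripotent cells were higher for 5, 4 and 4 of 6 in Neil1, Neil2 and Apex1 EBs, with sums of 1614 to 1753 CPM in the controls, 2427 to 2750 in Neil1, 1831 to 2921 in Neil2 and 2892 to 2956 in Apex1. Neural progenitor markers moved both ways in EBs, 2 higher and 3 lower of 5 in both Neil1 and Neil2, with sums of 326 to 343 CPM in the controls, 476 to 584 in Neil1 and 435 to 593 in Neil2. Sox2 made up most of these sums, at means of 299, 498 and 514 CPM, and was also at 489 CPM in control mESCs. Sox2 and Pax6 were the higher genes in mutant EBs, and Nes, Fabp7 and Pax3 the lower ones. Of the neuronal markers 4 were tested there, and 3 were higher in Neil1 and 2 in Neil2. Their sum was 102 to 107 CPM in the controls, 131 to 183 in Neil1 and 92.7 to 191 in Neil2. Endothelial markers, listed because Dll4, Jag1 and Notch4 are also expressed there, had 2 higher and 2 lower of 5 in Neil1 EBs, 2 and 1 of 5 in Neil2 EBs, and 2 and 3 of 6 in EBs + RA of both. Emcn was at 0 in Neil1, Neil2 and Apex1 EBs and near 0 in control EBs (mean 0.04 CPM), and was not tested there. Kdr, Tie1 and Emcn were the lower genes in EBs + RA of both mutants (Kdr at −2.54, FDR 6.6e-04, and −2.66, FDR 2.4e-04). Pecam1 and Tek were the higher ones, and were also at means of 72.9 and 19.9 CPM in control mESCs. Cdh5 was called in neither mutant, at means of 8.89 CPM in the controls, 41.3 in Neil1 and 10.3 in Neil2. In EBs + RA the endothelial sum, over genes that moved both ways, was 34.1 to 41.3 CPM in the controls, 27.4 to 140 in Neil1 (median 35.6) and 21.5 to 49.7 in Neil2. Mesoderm markers there summed to 2.84 to 3.78 CPM in the controls, 4.56 to 8.18 in Neil1 and 6.41 to 7.92 in Neil2. Visceral endoderm markers were called in 1 of 4 in Neil1 EBs + RA and in none of 4 in Neil2 EBs + RA or in EBs of either mutant, with sums in EBs + RA of 31 to 210 CPM in the controls, 189 to 368 in Neil1 and 48.4 to 252 in Neil2. The part of these cell types in the differences of the Notch genes was not tested.

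Over the means of the 12 groups of genotype and stage, the 10 genes differed in how they varied with each other. On log2 CPM, Pearson's r was 0.88 for Dll3 with Lfng and for Notch2 with Hey1, 0.82 for Notch2 with Hes1, 0.81 for Notch1 with Jag1 and 0.79 for Dll1 with Lfng. At the other end, Notch1 and Hes1 had an r of −0.77. These points share clones across stages and come from few groups, so the values are descriptions. Among 11219 other genes averaging 5 CPM or more, those most like Dll1 were Lsm14b and Ptprk, those most like Dll3 2610018G03Rik and Tspan7, and those most like Jag1 Tubgcp4 and D16Ertd472e. Among the receptors, Notch1 was followed most closely by Fam48a and Tnrc6c, Notch2 by Parp11 and Gpc1, and Notch3 by 1110012D08Rik and A130010J15Rik. For Lfng they were Brd3 and Slc1a3, for Hes1 Robo2 and Wls, for Hes6 Ddx17 and Nrcam, and for Hey1 Spry1 and Eml1. The r of these pairs lay between 0.903 (Dll1 with Ptprk) and 0.98 (Hes1 with Robo2).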

How the data were processed

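RNA-seq was available from 33 libraries of mouse cells, 12 groups of 4 genotypes at 3 stages. The authors prepared unstranded TruSeq RNA libraries and sequenced them for 51 cycles. Per the submitters' processing notes and the methods, reads were aligned with TopHat 2.0.9 and Bowtie2 2.1.0 to NCBIM37 and summarised per gene by HTSeq-count 0.5.4. The deposited files hold these raw counts. HTSeq-count set aside 11.4% to 19.9% of reads as multi-mapped and 5.86% to 8.85% as outside genes, which lowers the counts of genes with near-identical copies, and these rows were kept out of library sizes and tests. Of 37991 identifiers, 37205 had a name in the NCBIM37 annotation.

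Counts were filtered by filterByExpr, scaled by TMM and tested with edgeR 4.0.16 (R 4.3.3, limma 3.58.1), robust quasi-likelihood, with Benjamini-Hochberg adjustment (FDR) over all genes tested. DE genes passed an FDR of 0.1 and exceeded 0.5 in log2 fold change, up or down, and the interaction had to pass the FDR alone. Intervals are 95% intervals of the fitted log2 fold change. Within-group pairs of libraries (30) differed by 5.58 to 127 chi-squared per degree of freedom, so none was a copy. An exact permutation test of 3 against 3 clones cannot go below 0.1 and was not used. At this depth a gene below 1 CPM rests on few counts.

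The 10 members, the pathway and marker lists, and the alternatives were chosen with earlier results of these data known. Other pathway genes were described by counts, naming per role at most 4 genes with the largest absolute log2 fold change among called ones in Neil1 or Neil2 EBs + RA or the control stage comparisons, and for each member the 2 genes with the highest Pearson r over the 12 group means (log2 CPM, prior count 2, mean of at least 5 CPM). Sox1 was not used, and some genes of these lists are not reported here and were left out of the counts and sums. Clones of 1 genotype at different stages are paired by the labels. The main fits of stage comparisons and interactions, and their counts, held no term for the clone and so did not use this pairing. The fit with the clone as a block was run as an alternative. In EBs and EBs + RA, deviations from group means of the same clone correlated at 0.17 to 0.48, between mESCs and EBs at −0.47 to 0.20. Equal numbers in control and Neil1 EBs + RA correlated at 0.22 to 0.29. Alternatives were DESeq2 1.42.0, RLE factors, library totals, no filter, FDR below 0.05, other samples in the fit, each replicate left out, and the replicate block. The scripts were tested on simulated data. Python 3.11.15, pandas 2.3.3, numpy 2.4.6 and matplotlib 3.10.9 were used for tables and figures. Promoter sequences are from RefSeq.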

Additional observations from a re-analysis of the deposited data

Results flagged for a closer look

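The effect of RA on the difference between mutant and control clones was tested directly as an interaction in edgeR, in log2 units with a negative value for a mutant level that falls further behind the control in EBs + RA than in EBs. In Neil1 it passed an FDR of 0.1 for Dll1 (−3.80), Lfng (−2.86), Hey1 (−2.00), Dll3 (−1.66), Hes6 (−0.76) and Notch2 (−0.42), and on the positive side for Hes1 (0.85). In Neil2 it passed for Dll1 (−3.96), Lfng (−2.93), Hey1 (−1.97), Notch1 (−1.86), Dll3 (−1.69), Hes6 (−1.25) and Notch2 (−0.50), and on the positive side for Hes1 (0.78). Both sets share the control clones and are not independent. No library was tested for standing apart from its group in these values, since groups hold 3 clones or fewer.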

How the results depend on the processing

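No value of the 10 genes that was called changed sign under any alternative run, and calls of Dll1, Dll3, Lfng, Hey1, Notch2 and Notch3 in Neil1 and Neil2 EBs + RA held in every fit. With each replicate left out in turn, 1184 of the values for single genes kept their side of the threshold, 80 lost a call and 26 gained one. Limits follow, as numbers of the 10 genes called. In mESCs, Neil1 had 1, with 4 by DESeq2, 0 at an FDR below 0.05, 3 with all genotypes in 1 fit, and 0 to 5 with a replicate left out (5 without control #7). Neil2 mESCs had 1, with 0 by library totals, 2 by DESeq2, 0 at an FDR below 0.05, 0 with all genotypes in 1 fit and 0 to 4 with a replicate left out (4 without control #7). Neil2 EBs had 5, and 3 to 5 with a replicate left out (3 without control #1). Apex1 had 0 in mESCs and 1 with its duplicates as 2 samples, 2 in EBs with 1 at an FDR below 0.05, 4 with duplicates and 1 to 1 without a control, and 1 in EBs + RA with 2 without the filter, 3 by DESeq2, 0 at an FDR below 0.05, 4 with duplicates, 0 in a fit with only the controls, and 0 to 5 without a control (5 without #7). The Apex1 interaction had 0, with 1 without the filter, 4 by DESeq2 and 0 to 3 with a library left out. With a replicate left out, the counts of EBs + RA ran from 6 to 9 in Neil1 and 8 to 10 in Neil2, those of control EBs + RA against EBs from 4 to 7, and those of the interaction from 5 to 9 in Neil1 and 7 to 9 in Neil2. The causes were not tested.

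With the replicate block, in which clone or replicate number is a term, Neil1 mESCs had 0 and Neil2 mESCs 2 of the 10, the Apex1 interaction 2, and Apex1 with duplicates 2 in mESCs, 4 in EBs and 6 in EBs + RA. Other changes under the block stand beside their results, apart from Lfng in Neil1 EBs against mESCs, which was called at 0.74 (FDR 0.0864). Library totals without TMM shifted the median of all genes by up to 0.28 (Neil1, EBs + RA against EBs). Calls over all genes in mESCs were 283 in Neil1, with 0 to 2011 when a replicate was left out and 0 to 1044 under the other alternatives, and 286 in Neil2, with 1 to 1494 and 22 to 814.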
